A study of Mus musculus with 6 samples.

Results

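The UGT, SULT and GST genes encode the transferases that attach a sugar acid, a sulfate or glutathione to small molecules, and they were compared here in livers of newborn mice whose mothers had eaten different oils. The members were all genes whose symbol begins with Ugt1, Ugt2, Ugt3, Sult and a digit, or Gst with the class letter a, k, m, o, p, t or z and a digit, and for which a probe was annotated to exactly 1 symbol. The probe with the highest mean over the 6 arrays stood for its gene. The rule found 45 of 19938 genes, 10 UGT, 16 SULT and 19 GST genes, and used no difference between diets.

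C57Bl6/J mice of no stated genetic modification were used, and the females received 1 of 3 isocaloric diets with 6 g% of oil. The oil was soybean in the Control diet, flaxseed in the ALA diet, which gives much alpha-linolenic acid, and coconut in the SFA diet, which gives much saturated fat. Offspring livers were taken within 1 day of birth, per the labels, and each of the 6 Affymetrix arrays carried RNA from a pool of 3 livers, with 2 arrays per diet. The labels give neither the sex of the pups nor their litters. They do not say that the duplicate pools came from different animals, so the p-values reflect the variation among these pools alone, part or all of which can be technical.

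UDP-glucuronosyltransferases (UGT) move glucuronic acid, or for the UGT3 enzymes other sugars, from a nucleotide sugar to bilirubin, steroids, bile acids and drugs. Sulfotransferases (SULT) move sulfate from the donor PAPS to steroids, thyroid hormone, bile acids and phenols, and glutathione S-transferases (GST) join reactive electrophiles to glutathione. The products are more soluble in water and leave the hepatocyte through ABC transporters. Glucuronidation is immature in the liver of the newborn, which is one reason for jaundice at that age, and it matures after birth.

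The stretches of promoter sequence shown here belong to the UGT genes, the family in which the differences from Control all pointed the same way. They are the 150 bases before the RefSeq transcript start in the mouse assembly GRCm38.p6, read 5′ to 3′ on the gene's own strand. Capitals mark AGGTCA, a hexamer known for binding nuclear receptors, and GTTAAT or its reverse complement, known as part of the site of the hepatocyte factor HNF1. The first 4 genes hold AGGTCA close to the start.
Ugt2b5 (chr5:87140341-87140490, minus strand): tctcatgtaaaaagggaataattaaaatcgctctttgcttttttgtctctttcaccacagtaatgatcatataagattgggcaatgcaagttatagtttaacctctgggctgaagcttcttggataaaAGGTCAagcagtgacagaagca
Ugt2b38 (chr5:87424204-87424353, minus strand): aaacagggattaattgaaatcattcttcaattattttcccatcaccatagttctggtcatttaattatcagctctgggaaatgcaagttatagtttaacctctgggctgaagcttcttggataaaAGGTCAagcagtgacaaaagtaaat
Ugt2b37 (chr5:87254789-87254938, minus strand): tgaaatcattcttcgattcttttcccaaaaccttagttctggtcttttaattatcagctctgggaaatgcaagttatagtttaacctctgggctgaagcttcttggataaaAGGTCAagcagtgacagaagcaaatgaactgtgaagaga
Ugt2b36 (chr5:87092556-87092705, minus strand): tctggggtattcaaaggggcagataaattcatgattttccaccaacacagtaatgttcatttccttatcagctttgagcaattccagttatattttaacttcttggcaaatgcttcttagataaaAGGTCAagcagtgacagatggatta
Ugt2b1 (chr5:86926504-86926653, minus strand): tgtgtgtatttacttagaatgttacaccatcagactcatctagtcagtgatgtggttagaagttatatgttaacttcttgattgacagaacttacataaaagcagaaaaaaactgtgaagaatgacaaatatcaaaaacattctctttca
Ugt2b34 (chr5:86906938-86907087, minus strand): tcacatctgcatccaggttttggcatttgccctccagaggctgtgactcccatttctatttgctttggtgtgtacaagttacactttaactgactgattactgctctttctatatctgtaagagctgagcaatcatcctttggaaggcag
Ugt2a3 (chr5:87337196-87337345, minus strand): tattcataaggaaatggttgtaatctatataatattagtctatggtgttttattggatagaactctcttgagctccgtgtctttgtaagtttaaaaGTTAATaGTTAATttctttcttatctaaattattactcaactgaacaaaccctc
Ugt3a1 (chr15:9279679-9279828, plus strand): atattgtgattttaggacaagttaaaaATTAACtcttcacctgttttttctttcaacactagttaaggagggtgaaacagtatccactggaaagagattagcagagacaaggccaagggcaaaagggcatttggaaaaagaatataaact

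Ugt2b5, Ugt2b36, Ugt2b37 and Ugt2b38 shared an unbroken run of 22 bases around the hexamer, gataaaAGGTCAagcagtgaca. In Ugt2b5, Ugt2b37 and Ugt2b38 the shared run was 62 bases long. The hexamer began 22 bases before the start in Ugt2b5, 25 in Ugt2b36 and Ugt2b38, and 39 in Ugt2b37. Over windows from 250 bases before to 50 after the start, searched on both strands, AGGTCA occurred in 5 of 9 UGT genes with a window, the fifth being Ugt2b35 at 215 bases before the start. Over all genes it occurred in 4900 of the 27025 with a window, and in 16.3% of the 32851 windows. The Ugt2b genes are near copies, so these matches are not independent of each other. GTTAAT occurred in Ugt2a3 and Ugt3a1 among the UGT genes, in 5 of 15 SULT genes and in 1 of 17 GST genes. Over all genes it occurred in 2228 of 27025, and in 7.1% of all windows. The antioxidant response element core TGACNNNGC occurred in 3 GST genes (Gsta3, Gstm5 and Gstm7), in 3781 of the 27025 genes and in 12.4% of all windows. The xenobiotic response element core GCGTG occurred in 3 SULT genes, 4 GST genes, 9500 of the 27025 genes and 32.4% of all windows. Of the 45 members, 41 matched a window by Entrez identifier. A match describes letters and is not a measured binding site.

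Several facts of the arrays touch all results on these genes. Hepatocyte markers were high on every array, with a mean log2 signal from 12.19 to 12.36 over 7 genes such as Alb and Apoa1, none of which was called in either comparison with Control. The fetal liver gene Afp was at 4.52 and 4.81 on the Control arrays, close to the low-signal bound of 4.42, at 4.94 and 5.60 on the ALA arrays and at 6.26 and 6.44 on the SFA arrays. That bound was set as the highest signal of 3 Y-linked genes (Eif2s3y, Kdm5d and Uty) on the 3 arrays where all of them were below 5. The Control arrays thus had little of the fetal marker that a liver of the labelled age is known for. Of 10 tested fetal liver genes, 7 rose on ALA and 9 on SFA. Of 14 tested genes of the maturing hepatocyte, 1 rose (Tat) and 5 fell on ALA, and 6 fell on SFA. These counts are against Control, by the limma test and threshold given below. Over all 10977 tested genes, that threshold was passed in either direction by 7.93% on ALA and 13.8% on SFA. Xist, the RNA of the inactive X chromosome, was at 10.67 and 8.34 on Control, 3.76 and 4.24 on ALA, and 9.46 and 9.51 on SFA. The Y-linked gene Eif2s3y was at 3.63 and 7.95 on Control, 7.74 and 7.80 on ALA, and 4.11 and 3.79 on SFA. Maternal diet therefore cannot be told apart from the maturity and the sex makeup of the pools, and the part of either in the results on conjugation genes was not tested.

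A gene was tested with limma if it averaged a log2 signal of 5 or more across arrays, and called where its p, adjusted over all 10977 tested genes, was below 0.05. Of the 45 members, 33 passed the signal minimum. Against Control, 2 members were higher and 9 lower on ALA, 33.3% of the tested members, where the share over all tested genes was 7.93% (5.11% higher and 2.82% lower). On SFA, 4 members were higher and 8 lower than Control, 36.4% of the tested members, where the share over all genes was 13.8% (6.62% higher and 7.15% lower). Between ALA and SFA, 0 members were higher and 2 lower on ALA by limma, where 1.09% of all genes were higher and 0.437% lower. In that comparison 10 members had an unadjusted p below the same threshold, as did 2463 of all 10977 tested genes. Without overlap between the arrays of the groups, 5 members lay higher and 18 lower on ALA than on Control (27.0% and 28.0% of all genes), 12 higher and 15 lower on SFA than on Control (28.6% and 35.7%), and 5 higher and 16 lower on ALA than on SFA (31.4% and 24.4%). The F test over the 3 diets called 14 members, where it called 13.5% of all genes. The counts moved with single arrays. Leaving out an array of a diet outside a comparison kept the difference of means as it was and altered only its error and p. Without Control replicate 2, 1 member was called higher and 4 lower on ALA, 1 higher and 3 lower on SFA, and 3 by the F test. Without either SFA array, 1 was higher and 2 lower on SFA, and the F test called 5. On ALA, 1 was higher without either ALA array, and 5 were lower without ALA replicate 1. Between ALA and SFA, 0 were lower without any 1 of the 6 arrays. Both comparisons with Control use the same 2 Control arrays, so their values stand side by side below and are not independent of each other.

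**Figure D1:**
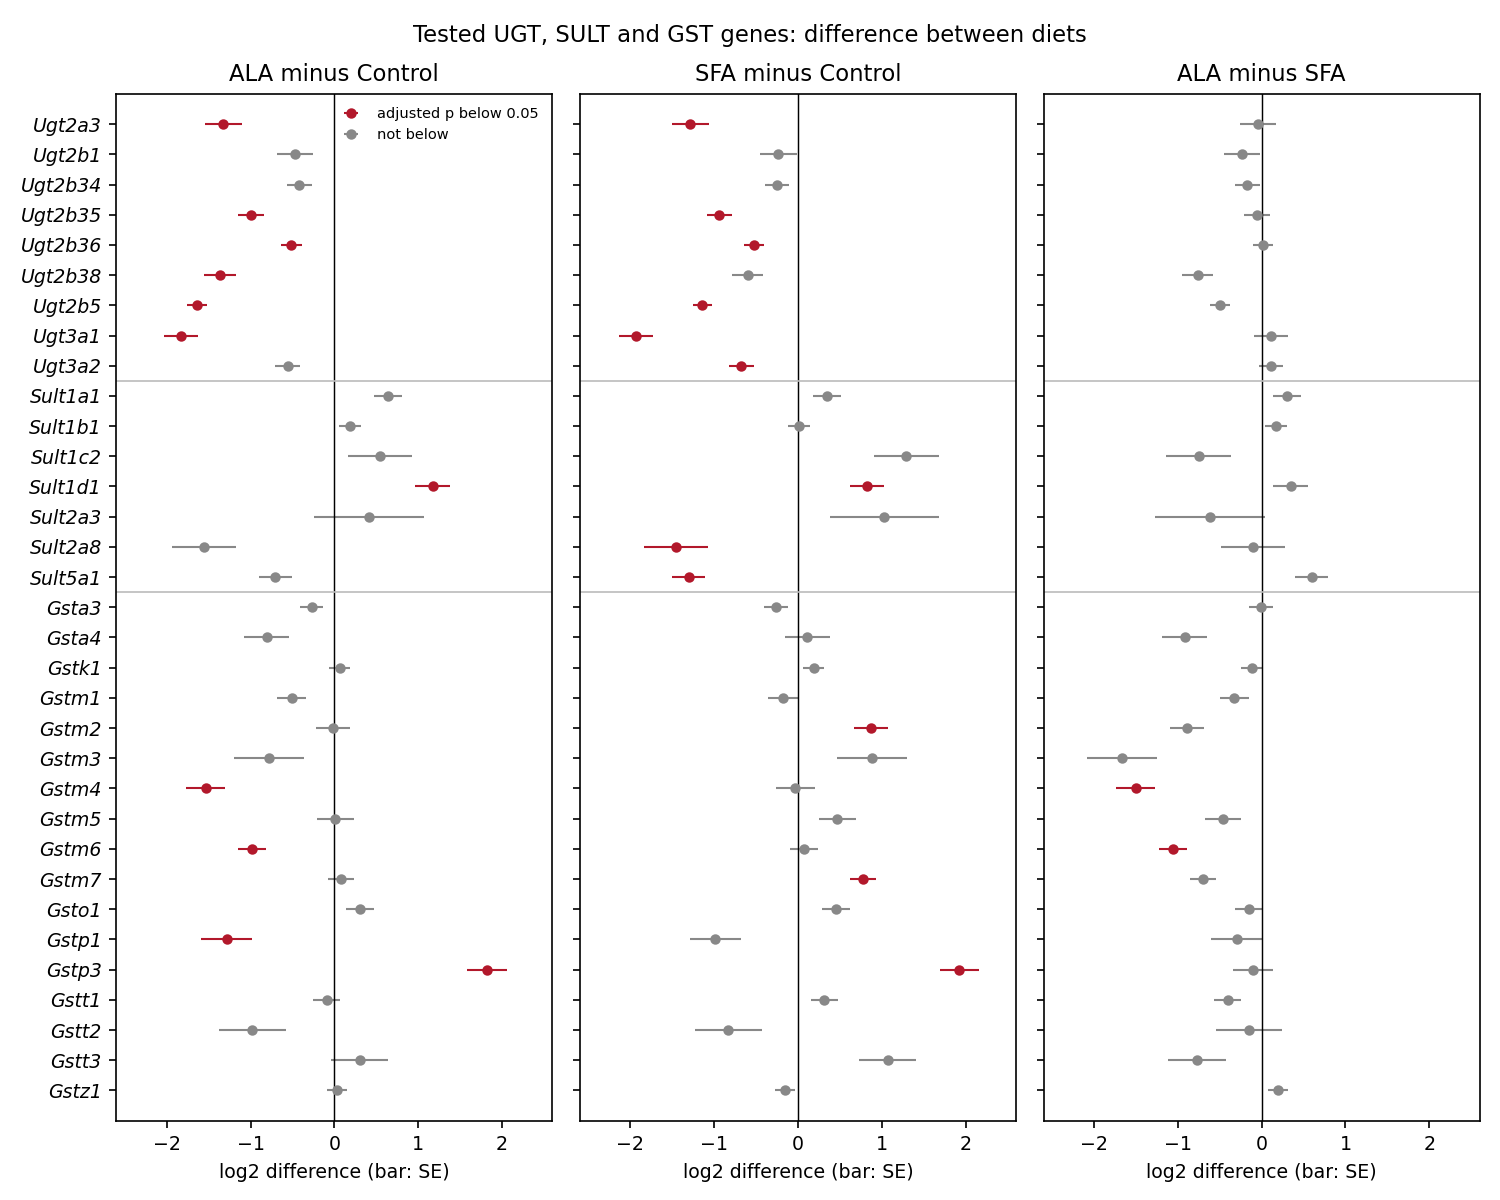
Log2 difference between diets (x axis) for each of the 33 tested UGT, SULT and GST genes (rows), with its standard error as a bar; red marks a limma adjusted p below 0.05. All 9 UGT genes lie left of 0 in both comparisons with Control, while 16 of 17 GST genes lie left of 0 between ALA and SFA. Of all 10977 tested genes, 5675 were below 0 on ALA against Control, 6064 on SFA against Control and 4978 between ALA and SFA.

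All 9 tested UGT genes had lower mean signal than Control on both diets. Of all 10977 tested genes, 5675 did on ALA and 6064 on SFA. On ALA 6 of the UGT genes fell, with a median log2 difference of -0.99 over the 9, and on SFA 6 fell, with a median of -0.67. Over all tested genes these medians were -0.012 and -0.05. The called genes were 66.7% of the tested UGT genes on either diet. Of all tested genes, 2.82% were called lower on ALA and 7.15% on SFA. Both ALA arrays lay below both Control arrays for 9 of the 9 genes, and both SFA arrays for 8, where 28.0% and 35.7% of all genes lay so. The Ugt2b genes are near copies, so signal of one may reach the probe of another. Ugt3a1 and Ugt3a2 also have probes annotated to both. The 9 genes therefore do not count as separate measurements. Between ALA and SFA the UGT median was -0.057 (-0.31 and -0.031 with the first or the second ALA array left out, -0.135 with SFA replicate 2 left out). In that comparison 0 UGT genes were called by limma, with 2 at an unadjusted p below 0.05, as were 2463 of all 10977 tested genes.

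Ugt2b5, whose enzyme glucuronidates steroids and other endogenous and foreign compounds, had log2 signals of 10.29 and 10.38 on Control, 8.66 and 8.74 on ALA, and 9.22 and 9.17 on SFA. The 3 diets did not overlap, with ALA lowest. Ugt2b5 fell by 1.63 on ALA (SE 0.12, adjusted p = 0.00246), a factor of 3.10, and by 1.14 on SFA (SE 0.12, adjusted p = 0.00382), a factor of 2.20. The difference between ALA and SFA was -0.50 (SE 0.12, adjusted p = 0.0867) and was not called.

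Ugt3a1 encodes an enzyme known for transferring N-acetylglucosamine in place of glucuronic acid. It was at 10.22 and 9.87 on Control, 8.46 and 7.97 on ALA, and 8.03 and 8.19 on SFA. The arrays of both diets lay more than 1 log2 unit below those of Control and overlapped each other. Ugt3a1 fell by 1.83 on ALA (SE 0.20, adjusted p = 0.00536) and by 1.94 on SFA (SE 0.20, adjusted p = 0.00377). Its neighbour on chromosome 15, Ugt3a2, was at 11.09 and 11.12 on Control, 10.67 and 10.43 on ALA, and 10.54 and 10.33 on SFA. Here the fall of 0.67 on SFA passed (SE 0.14, adjusted p = 0.0285), while the difference of -0.56 on ALA did not (SE 0.14, adjusted p = 0.0621). Without Control replicate 1, Control replicate 2 or either SFA array the Ugt3a2 call was lost.

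Ugt2a3, another member of the glucuronosyltransferase cluster on chromosome 5, was at 10.27 and 10.35 on Control, 9.33 and 8.64 on ALA, and 9.01 and 9.03 on SFA. It fell by 1.32 on ALA (SE 0.22, adjusted p = 0.0172) and fell by 1.28 on SFA (SE 0.22, adjusted p = 0.0144), and the ALA arrays lay on either side of the SFA arrays. Ugt2b35 was at 9.01 and 9.23 on Control, 7.99 and 8.26 on ALA, and 8.26 and 8.11 on SFA. It fell by 0.99 on ALA (SE 0.15, adjusted p = 0.0139) and by 0.94 on SFA (SE 0.15, adjusted p = 0.0128), again with overlap between the latter diets. The Ugt2a3 calls were lost without either Control array, and on SFA also without either SFA array. The Ugt2b35 calls were lost without Control replicate 2, and further on ALA without ALA replicate 1 and on SFA without either SFA array.

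Ugt2b38 was at 8.07 and 8.54 on Control, 7.08 and 6.80 on ALA, and 7.72 and 7.68 on SFA. The ALA arrays were the lowest and the SFA arrays stood between. Ugt2b38 fell by 1.36 on ALA (SE 0.19, adjusted p = 0.00905), and the call was lost without ALA replicate 2. The SFA difference was -0.60 (SE 0.19, adjusted p = 0.0755) and that between ALA and SFA -0.76 (SE 0.19, adjusted p = 0.0875). Ugt2b36 was at 11.48 and 11.53 on Control, 11.00 and 10.98 on ALA, and 11.04 and 10.90 on SFA. Its falls of 0.51 on ALA (SE 0.12, adjusted p = 0.0493) and 0.53 on SFA (SE 0.12, adjusted p = 0.0346) were small and close to the threshold. Leaving out any 1 of the 6 arrays ended the ALA call, and any Control or SFA array the SFA call.

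The remaining UGT genes were not called. Ugt2b34 was at 11.11 and 10.92 on Control, 10.73 and 10.46 on ALA, and 10.79 and 10.74 on SFA, with differences from Control of -0.42 and -0.25 (SE 0.15 each). Ugt2b1, an abundant glucuronosyltransferase of mouse liver, was at 10.09 and 10.73 on Control, 10.08 and 9.80 on ALA, and 10.19 and 10.15 on SFA, and its SFA arrays lay between the Control arrays. Ugt2b37 missed the signal minimum. It was at 4.88 and 4.86 on Control, above the low-signal bound, and between 3.81 and 4.13 on the other arrays, below it. In the plot of UGT signal by array, the Control points stand on top in every gene but Ugt2b1.

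**Figure D2:**
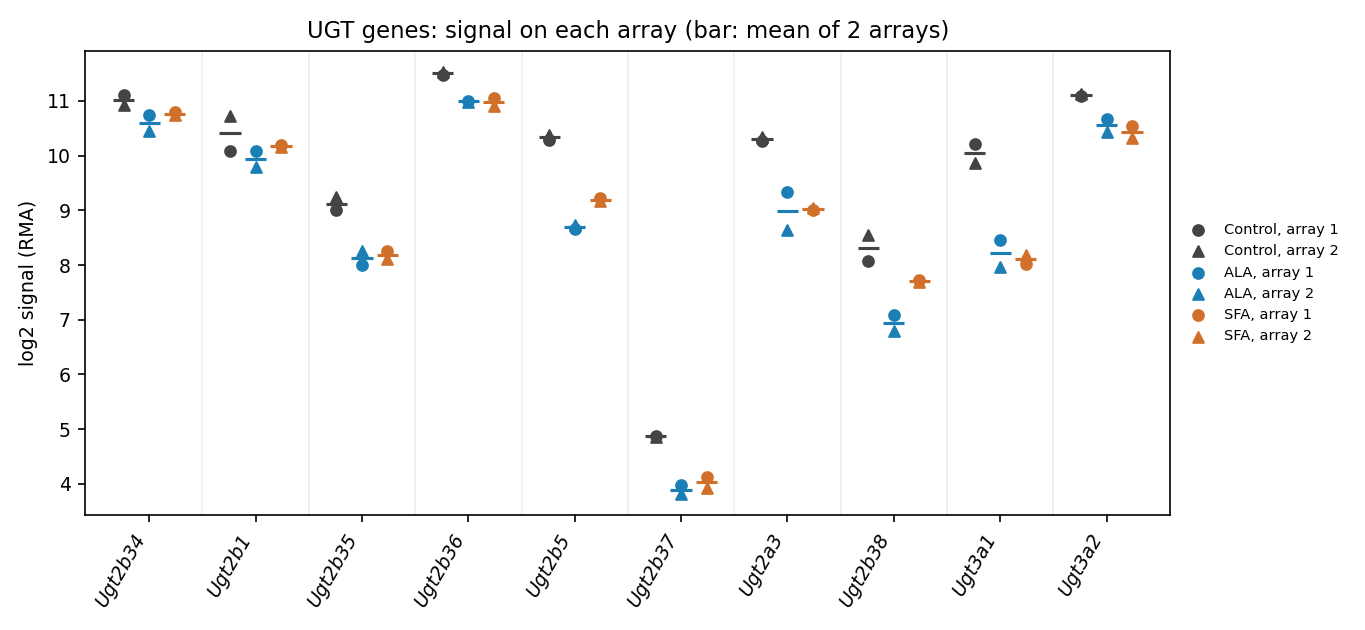
Log2 signal (y axis) of the 10 UGT genes on each of the 6 arrays, coloured by diet, with the mark shape giving the array number and a bar at the mean of the 2 arrays. Ugt2b5 runs from 10.38 on Control to 8.66 on ALA with no overlap between diets, while the Ugt2b1 arrays of Control and SFA overlap.

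On chromosome 5 the UGT2 genes and 3 sulfotransferase genes lie side by side. In the RefSeq order of GRCm38.p6 the measured members run Ugt2b34, Ugt2b1, Ugt2b35, Ugt2b36, Ugt2b5, Ugt2b37, Ugt2a3, Ugt2b38, Sult1b1, Sult1d1 and Sult1e1, and Ugt2a1 and Ugt2a2 between Ugt2b38 and Sult1b1 have no probe of their own. All 8 measured UGT2 genes had negative differences of means from Control on both diets, from -1.63 to -0.42 on ALA and from -1.28 to -0.23 on SFA. Sult1d1 had positive ones, 1.17 on ALA and 0.83 on SFA. Those of Sult1b1 were 0.18 and 0.01 (SE 0.13 each), within or near their error, and those of Sult1e1, 2.28 and 0.66, have no reliable size, since its Control and SFA arrays were below the low-signal bound. Of these 11 genes, Ugt2b37 and Sult1e1 were below the signal minimum and not tested, and Ugt2b34, Ugt2b1 and Sult1b1 were not called in either comparison.

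**Figure D3:**
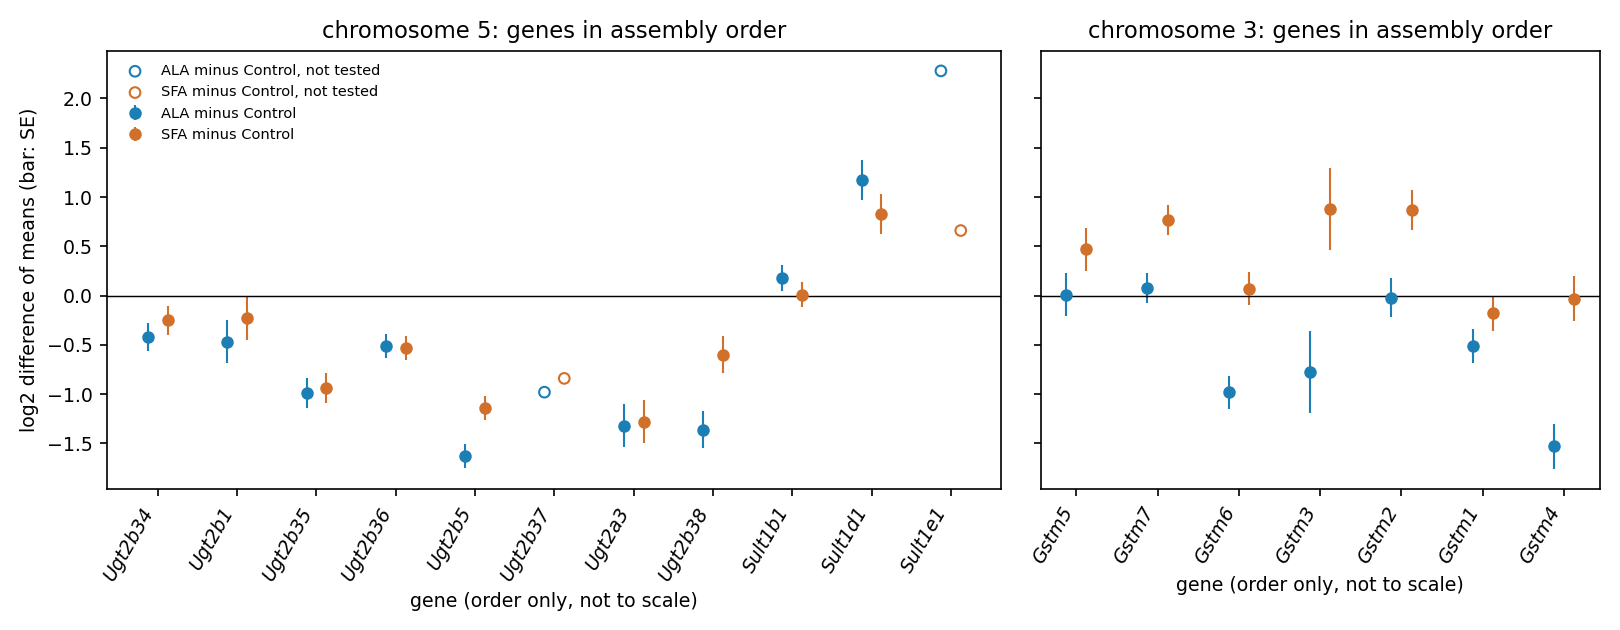
Log2 difference from Control (y axis, bars are standard errors) for the members on chromosome 5 (left) and the Gstm genes on chromosome 3 (right), in the order of the assembly and not to scale; open circles are genes below the signal minimum. On chromosome 5 the points pass from below 0 in the UGT2 genes to above 0 in Sult1d1, at 1.17 on ALA and 0.83 on SFA.

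Among the 16 sulfotransferase genes 7 were tested, and the calls went both ways. On ALA 1 rose and 0 fell by limma, 14.3% of the tested SULT genes, where the share over all genes was 7.93%. In that comparison 4 of the 7 had an unadjusted p below 0.05, as did 2714 of all 10977 tested genes. On SFA 1 rose and 2 fell, 42.9% of the tested SULT genes, where the share over all genes was 13.8%. The median log2 difference over the 7 was 0.42 on ALA and 0.34 on SFA, but without Control replicate 2 it was -0.15 and 0.065, and without Control replicate 1 it was 0.83 and 0.53. Without ALA replicate 2 the ALA median was 0.28.

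Sult1d1, which sulfates catecholamines and other small phenols, was at 10.19 and 9.59 on Control, 11.16 and 10.95 on ALA, and 10.76 and 10.67 on SFA. The diets did not overlap, with ALA on top. Sult1d1 rose by 1.17 on ALA (SE 0.21, adjusted p = 0.0213) and by 0.83 on SFA (SE 0.21, adjusted p = 0.0419). Without Control replicate 2 the differences were 0.87 and 0.53 and neither was called. The ALA call was also lost without either ALA array, and the SFA call without any ALA or SFA array.

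Sult1a1, the main phenol sulfotransferase of liver, was at 9.45 and 9.07 on Control, 9.78 and 10.03 on ALA, and 9.61 and 9.59 on SFA. Both diets lay above Control, yet neither the difference of 0.64 on ALA (SE 0.17, adjusted p = 0.0631) nor that of 0.34 on SFA (SE 0.17, adjusted p = 0.21) passed. Sult1b1, a sulfotransferase of thyroid hormone and phenols, stayed between 6.43 and 6.74 on all arrays. Sult1c2 ranged from 5.49 on Control replicate 2 to 7.49 on SFA replicate 1, and its SFA difference of 1.29 (SE 0.39, adjusted p = 0.0688) was not called.

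Sult5a1, a sulfotransferase of unsettled substrates, was at 6.06 and 5.89 on Control, 5.53 and 5.01 on ALA, and 4.78 and 4.56 on SFA. The SFA arrays were the lowest and stood only a little above the low-signal bound. Sult5a1 fell by 1.30 on SFA (SE 0.20, adjusted p = 0.00976), and its ALA difference was -0.71 (SE 0.20, adjusted p = 0.073). Without either SFA array the SFA call was lost.

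Sult2a8, a member of the SULT2A family of steroid and bile acid sulfotransferases, was at 9.35 and 10.60 on Control, 8.68 and 8.16 on ALA, and 8.64 and 8.41 on SFA. The Control arrays differed from each other by 1.25, and Control replicate 1 lay less than 1 log2 unit above the highest ALA and SFA arrays. Sult2a8 fell by 1.45 on SFA (SE 0.38, adjusted p = 0.049), and the ALA difference of -1.56 (SE 0.38, adjusted p = 0.0541) was not called. Without Control replicate 2 these differences were -0.83 and -0.94, and the SFA call was lost, as it was without any 1 of the ALA or SFA arrays. Sult2a3 was at 5.91 and 3.63 on Control, and from 5.05 to 6.19 on the other arrays, so that 1 Control array was below the low-signal bound and the other within the range of the diets.

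Of the 9 sulfotransferase genes that were not tested, 3 had signal on some arrays or near the bound. Sult1e1, the estrogen sulfotransferase, was at 3.09 and 2.85 on Control, 5.73 and 4.76 on ALA, and 3.36 and 3.90 on SFA. It was above the low-signal bound on the ALA arrays and below it on the other arrays. Sult3a1 was at 8.20 on Control replicate 1, 4.42 on Control replicate 2, and from 2.72 to 3.47 on the ALA and SFA arrays. Its signal therefore came from a single pool. Sult2b1 stayed between 4.30 and 4.58, near the bound on all arrays. The other 6 genes (Sult1c1, Sult2a6, Sult3a2, Sult4a1, Sult6b1 and Sult6b2) were below the bound on all arrays, from 2.81 to 4.30.

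Sult3a1 and several Sult2a genes are known for higher expression in female than in male mouse liver after puberty, which is not stated here for Sult2a8. Control replicate 1, with the higher Sult3a1 and Sult2a3 signal and the lower Sult2a8 signal of the Control pair, had high Xist and no Y-linked signal, and Control replicate 2 had both. The ALA pools, with Y-linked signal and little Xist, had Sult2a3 at 5.05 and 5.32, and the SFA pools, with Xist and no Y-linked signal, had Sult3a1 below the bound. A probe shared by Sult2a1 and Sult2a2 was at 9.42 and 6.57 on Control, 9.88 and 10.47 on ALA, and 10.18 and 10.07 on SFA. The part of sex in these values was not tested.

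**Figure D4:**
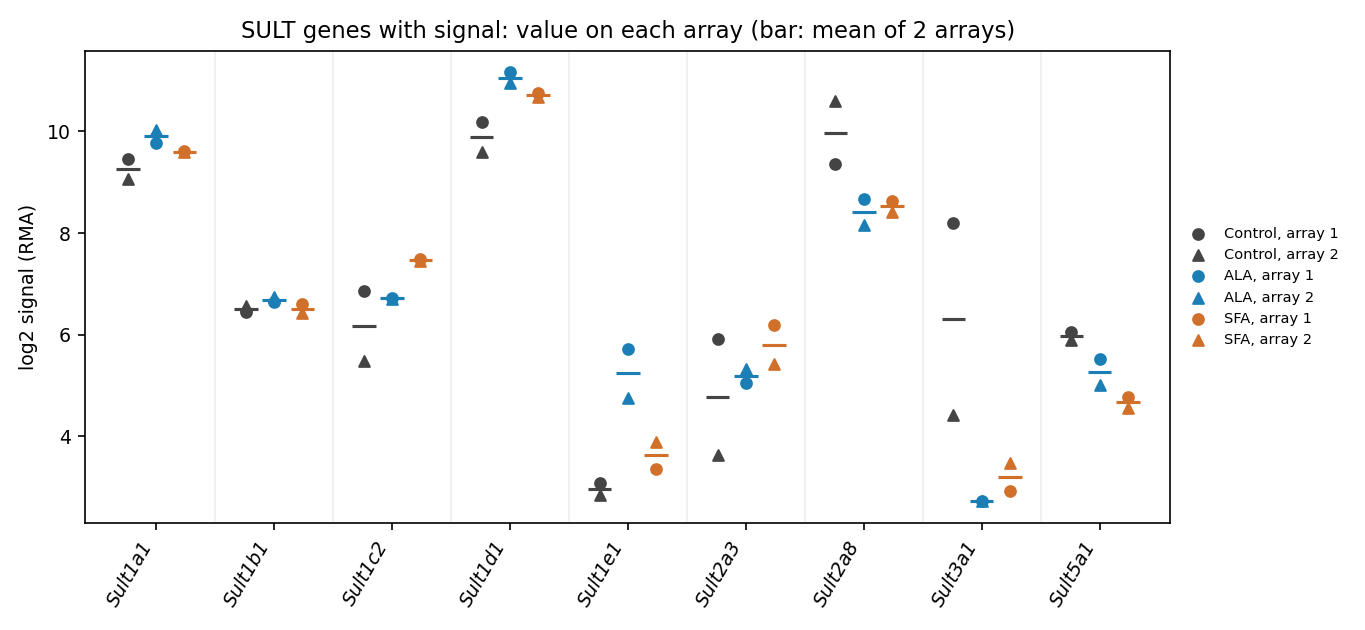
Log2 signal (y axis) of 9 sulfotransferase genes on each array, coloured by diet, with mark shapes for the array number and a bar at the mean of the 2 arrays. Sult1e1 exceeds the bound of 4.42 on the ALA arrays alone among the diets, and Sult3a1 runs from 8.20 on Control replicate 1 to 2.72 on ALA replicate 1.

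Of 17 tested GST genes, 1 rose and 3 fell on ALA, and 3 rose and 0 fell on SFA by limma. On SFA that is 17.6% of the tested GST genes, where the share over all genes was 13.8%, and on ALA 23.5%, where it was 7.93%. An unadjusted p below 0.05 was found for 7 of the 17 on ALA and 6 on SFA. Of all 10977 tested genes, 2714 and 3503 had such a p, and on SFA the GST share was near that of all genes. The median log2 difference was -0.09 on ALA and 0.19 on SFA. The ALA median was 0.055 without Control replicate 1, -0.27 without Control replicate 2 and -0.25 without ALA replicate 2, and the SFA median was 0.28 without Control replicate 1 and 0.11 without Control replicate 2. Between ALA and SFA 16 of the 17 genes were lower on ALA, as were 4978 of all 10977 tested genes. The median was -0.40, where that of all genes was 0.037. This median moved to -0.26 with ALA replicate 1 left out and to -0.61 with ALA replicate 2 left out. Of the 17 genes, 2 were called lower on ALA, where 0.437% of all tested genes were. Both ALA arrays lay below both SFA arrays for 10 of the 17, where 24.4% of all genes did so.

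The mu class genes on chromosome 3, whose enzymes handle epoxides and other electrophiles, accounted for most of these calls. Gstm4 was at 9.93 and 9.36 on Control, 7.88 and 8.35 on ALA, and 9.69 and 9.54 on SFA. The SFA arrays lay between the Control arrays, and the ALA arrays lay below both. Gstm4 fell by 1.53 on ALA against Control (SE 0.23, adjusted p = 0.013), a call lost without ALA replicate 1, and its SFA difference was -0.03 (SE 0.23). On ALA it was lower than on SFA by a log2 difference of -1.50 (SE 0.23, adjusted p = 0.0402).

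Gstm6, too, was lowest on ALA. It was at 8.77 and 8.61 on Control, 7.49 and 7.92 on ALA, and 8.78 and 8.74 on SFA. Gstm6 fell by 0.98 on ALA against Control (SE 0.17, adjusted p = 0.019), and the call was lost without ALA replicate 1 or either Control array. The ALA to SFA difference was -1.06 (SE 0.17, adjusted p = 0.0411). Both ALA to SFA calls were lost on leaving out any 1 of the 6 arrays, and both held under 4 of the 15 alternatives in all.

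Gstm2 and Gstm7 were higher on SFA alone among the comparisons with Control. Gstm2 was at 8.09 and 7.62 on Control, 7.64 and 8.03 on ALA, and 8.80 and 8.64 on SFA. The SFA arrays lay above the rest, and Gstm2 rose by 0.87 on SFA (SE 0.20, adjusted p = 0.0356). Gstm7 was at 9.16 and 8.997 on Control, 8.99 and 9.32 on ALA, and 9.90 and 9.80 on SFA. It rose by 0.77 on SFA (SE 0.15, adjusted p = 0.0231). On ALA the differences from Control were -0.02 for Gstm2 and 0.08 for Gstm7, and the differences between ALA and SFA, -0.89 (adjusted p = 0.0795) and -0.69 (adjusted p = 0.0751), were not called. Both SFA calls were lost without Control replicate 2 or either SFA array, and that of Gstm7 also without Control replicate 1.

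Gstm1, an abundant mu class enzyme of mouse liver, was at 11.90 and 11.74 on Control, 11.08 and 11.55 on ALA, and 11.64 and 11.64 on SFA, and its differences from Control of -0.51 and -0.18 (SE 0.17 each) were not called. Gstm3 had a difference of 0.88 on SFA (SE 0.42, adjusted p = 0.195) and -1.66 between ALA and SFA (SE 0.42, adjusted p = 0.0916). It is the only member with a second probe of its own, on which these differences of means were 1.38 and -1.96. Gstm5 ranged from 6.11 to 6.95 and was not called. The mu class genes are close copies, and signal of one may reach the probe of another, so the split between them is uncertain.

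The pi class genes on chromosome 19 moved in opposite directions. Gstp3, which Gstp2 separates from Gstp1, was at 6.92 and 6.44 on Control, 8.19 and 8.80 on ALA, and 8.58 and 8.62 on SFA. The arrays of both diets lay above those of Control, and the SFA arrays lay between the ALA arrays. Gstp3 rose by 1.82 on ALA (SE 0.24, adjusted p = 0.00812) and by 1.92 on SFA (SE 0.24, adjusted p = 0.00575), factors of 3.53 and 3.80. Gstp1, the main pi class enzyme of mouse liver, was at 11.43 and 12.29 on Control, 10.27 and 10.89 on ALA, and 10.88 and 10.87 on SFA. It fell by 1.28 on ALA (SE 0.30, adjusted p = 0.0493), while the SFA difference of -0.99 (SE 0.30, adjusted p = 0.0752) was not called. Without Control replicate 2, the brighter of the Control arrays, the Gstp1 differences were -0.86 and -0.56 and the ALA call was lost. It was also lost without any 1 of the ALA or SFA arrays.

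The other GST classes gave no calls. Gsta3, an alpha class enzyme, was at 11.48 and 11.62 on Control, 11.14 and 11.42 on ALA, and 11.32 and 11.26 on SFA, a difference of -0.27 on either diet (SE 0.14 each). Gsta4, known for conjugating the lipid peroxidation product 4-hydroxynonenal, was at 10.08 and 9.74 on Control, 8.69 and 9.53 on ALA, and 10.10 and 9.95 on SFA, with an ALA difference of -0.81 (SE 0.27, adjusted p = 0.121). Gstt2 was at 8.31 and 8.17 on Control, 6.56 and 7.97 on ALA, and 7.46 and 7.36 on SFA. Its ALA arrays were 1.41 apart, the widest gap between ALA duplicates among the tested members. Gstt3, at 8.75 and 7.60 on Control, had an SFA difference of 1.07 (SE 0.34, adjusted p = 0.0823). Gstt1, Gstk1, Gsto1 and Gstz1 differed from Control by at most 0.45 in size. Gsto2 was below the low-signal bound on every array and Gstt4 between 3.82 and 4.55, and neither was tested.

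The duplicates of a diet were not alike in this family. Over the 17 tested GST genes, 14 were higher on ALA replicate 2 than on ALA replicate 1, with a median difference of 0.42, and 15 were lower on Control replicate 2 than on Control replicate 1, with a median difference of -0.34. The SFA duplicates differed by a median of 0.10 in size. The plot of GST signal by array shows the wide ALA and Control pairs beside the narrow SFA pairs.

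**Figure D5:**
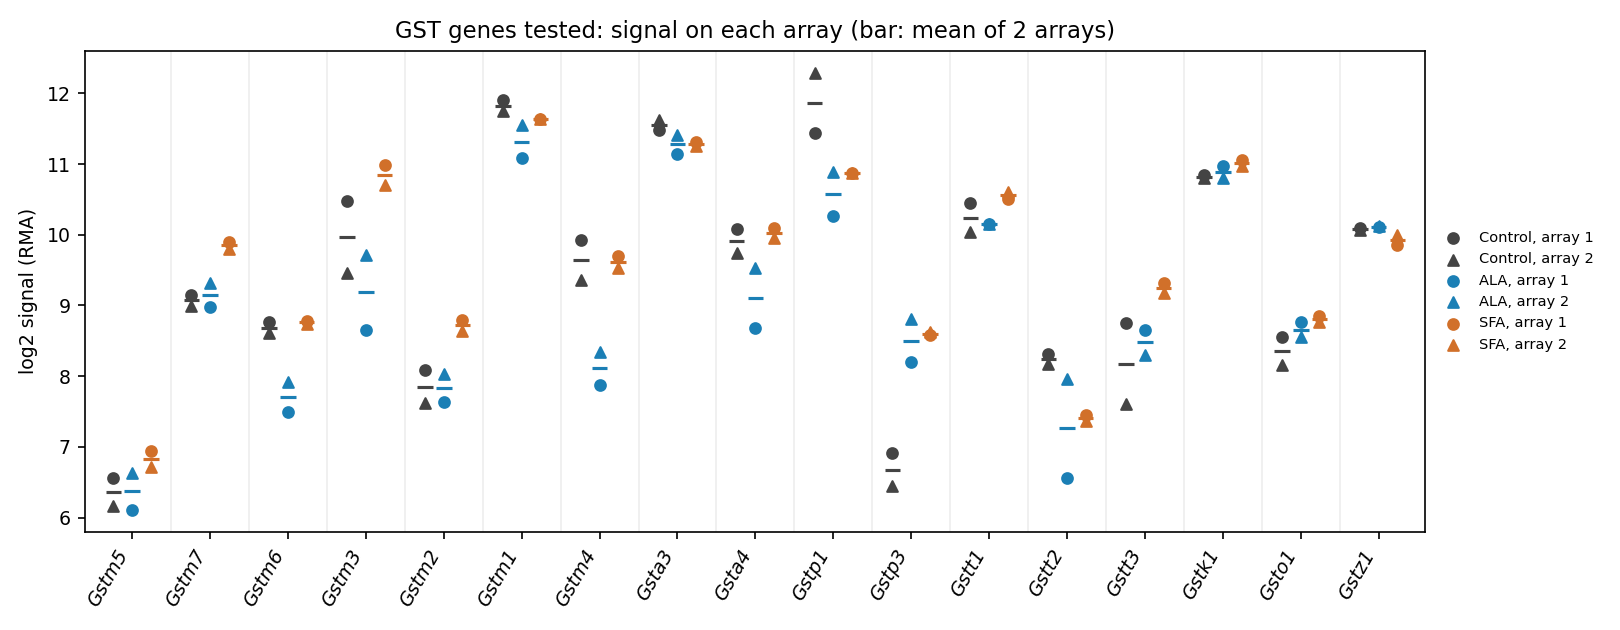
Log2 signal (y axis) of the 17 tested GST genes on each array, coloured by diet, with mark shapes for the array number and a bar at the mean of the 2 arrays. Gstm4 and Gstm6 are low on both ALA arrays, at 7.88 and 8.35 and at 7.49 and 7.92, and Gstp3 is low on both Control arrays, at 6.92 and 6.44.

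Among the genes that supply the donors, Ugdh, which makes UDP-glucuronic acid, the sugar donor of glucuronidation, was at 10.08 and 10.27 on Control, 8.21 and 8.45 on ALA, and 9.35 and 9.30 on SFA. It fell by 1.84 on ALA (SE 0.14, adjusted p = 0.00246) and by 0.85 on SFA (SE 0.14, adjusted p = 0.0138), and it was lower on ALA than on SFA by a log2 difference of -0.99 (SE 0.14, adjusted p = 0.0393). Of 3 transporters that carry nucleotide sugars into the endoplasmic reticulum or Golgi, Slc35d2 fell by 0.60 on ALA (adjusted p = 0.0434) and Slc35d1 fell by 0.75 on SFA (adjusted p = 0.0173), while Slc35a3 was not called. Pgm2, a phosphoglucomutase gene, rose by 1.00 on ALA and 1.10 on SFA (adjusted p = 0.00912 and 0.00605). Of the 8 tested genes of UDP-glucuronic acid supply, 1 rose and 2 fell in each comparison with Control, with medians of -0.29 and -0.08. Over all tested genes, the share called was 7.93% on ALA and 13.8% on SFA. Of the 8 tested genes of sulfate donor supply, including the PAPS synthase genes Papss1 and Papss2, 0 were called by limma in any comparison. At an unadjusted p below 0.05 there were 2 on ALA against Control, 0 on SFA and 1 between ALA and SFA. Of all 10977 tested genes, 2714, 3503 and 2463 had such a p in these comparisons, in the same order.

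Of 14 tested genes of glutathione supply and recycling, 3 fell on ALA and 2 on SFA, and 0 rose on either by limma, with 8 and 6 genes at an unadjusted p below 0.05 in either direction. Of all tested genes, 7.93% were called on ALA and 13.8% on SFA, and on SFA the share of this list was near that. At an unadjusted p below 0.05 there were 2714 of all 10977 tested genes on ALA and 3503 on SFA. Gclc, the catalytic subunit of the rate-limiting enzyme of glutathione synthesis, was at 11.40 and 11.15 on Control, 9.98 and 10.04 on ALA, and 10.68 and 10.68 on SFA, with no overlap between diets. It fell by 1.26 on ALA (SE 0.13, adjusted p = 0.00499) and by 0.59 on SFA (SE 0.13, adjusted p = 0.0324). Its modifier subunit gene Gclm fell by 0.57 on ALA (adjusted p = 0.0481) and glutathione reductase, Gsr, by 0.60 (adjusted p = 0.0328). Oplah, which returns 5-oxoproline to glutamate, fell by 0.94 on SFA (adjusted p = 0.0265). The list medians were -0.46 on ALA and -0.16 on SFA.

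Among 7 tested conjugate exporters, Abcc3, the basolateral pump for glucuronides, fell by 1.04 on ALA (adjusted p = 0.03), and Abcc2, the pump into bile, fell by 0.57 on SFA (adjusted p = 0.0296). That is 1 gene of the 7 in each comparison, where 7.93% and 13.8% of all genes were called. Among 14 tested regulators, Nr1i2 (PXR), a receptor for drugs and bile acids, rose by 0.81 on ALA and 0.62 on SFA (adjusted p = 0.022 and 0.0345). Nr1i3 (CAR), a receptor known for inducing UGT, SULT and GST genes, was at 10.66 and 10.48 on Control, 10.38 and 10.34 on ALA, and 9.20 and 9.22 on SFA. It fell by 1.36 on SFA (SE 0.12, adjusted p = 0.00302), differed by -0.21 on ALA (adjusted p = 0.353), and was higher on ALA than on SFA by 1.15 (adjusted p = 0.0348). The other tested regulators, including Ahr, Nfe2l2, Ppara, Rxra and Hnf4a, were not called. On SFA 2 of the 14 were called, a share near that of all genes.

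Of 10 tested genes known as NRF2 targets, 2 rose and 4 fell on ALA, and 2 rose and 2 fell on SFA. For this list and those after it, the share called over all tested genes was 7.93% on ALA and 13.8% on SFA. Hmox1, heme oxygenase, rose by 1.18 and 1.30 (adjusted p = 0.0052 and 0.0032), and Akr1b8 by 0.88 and 1.12, while Me1, malic enzyme, fell by 1.71 and 1.21 (adjusted p = 0.00737 and 0.0161). Ephx1, microsomal epoxide hydrolase, fell by 1.30 on ALA (adjusted p = 0.0241). Gclc and Gclm, counted above, belong to this list too. Of 13 tested conjugation enzymes of other kinds, 0 were called on ALA by limma. There 6 had an unadjusted p below 0.05, as did 2714 of all 10977 tested genes. On SFA 1 of the 13 rose (As3mt, by 0.65) and 4 fell (Acsm1, Baat, Glyat and Mgst1, by 0.48 to 0.67). Of 7 tested genes listed for deconjugation, the carboxylesterase gene Ces1f alone was called, and it fell by 3.57 on ALA and fell by 2.76 on SFA. The glucuronidase gene Gusb and the sulfatase genes Arsa, Arsb and Arsg were not called. The list medians were -0.02 on ALA and 0.12 on SFA, so the fall was that of Ces1f and not of the list.

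Markers of other cells in liver moved with the diets beside these genes. In bulk RNA, fewer cells of a type and less RNA per cell cannot be told apart. Of 8 macrophage markers 8 rose on ALA and 5 on SFA, and their mean log2 signal was 7.56 and 7.36 on Control, 8.91 and 8.54 on ALA, and 8.50 and 8.43 on SFA. Of 7 endothelial markers 5 and 6 rose, of 8 stellate cell and fibroblast markers 6 and 7, and of 7 markers of dividing cells 5 and 6. The mean signal of the dividing cell markers was 4.90 and 4.94 on Control, 6.22 and 7.67 on ALA, and 7.80 and 7.72 on SFA. Of 4 tested erythroid markers 2 rose on each diet, and the mean signal of the 5 measured was 5.30 and 5.60 on Control, 6.65 and 6.74 on ALA, and 7.05 and 6.97 on SFA. None of the 7 hepatocyte markers was called. The part of these cells in the results on conjugation genes was not tested. With Control replicate 2 left out, which leaves a Control arm of 1 array, the UGT median on SFA was -0.66 and 4 members were called on SFA, Ugt2b5 at -1.09, Ugt3a1 at -2.11, Sult5a1 at -1.39 and Gstp3 at 1.69.

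Probes annotated to several members were not used for the counts, and 12 of them matched the rule's names. A probe shared by 8 Ugt1a genes, among them Ugt1a1, the bilirubin-conjugating enzyme, was at 9.89 and 9.78 on Control, 9.23 and 9.52 on ALA, and 9.03 and 8.995 on SFA. Both diets lay below Control on it, by differences of means of -0.46 and -0.82, which were not tested. The 2 probes shared by Ugt3a1 and Ugt3a2 had differences of -1.11 and -1.09 on ALA and -0.96 and -0.99 on SFA. The 2 probes shared by Gstp1 and Gstp2 had differences of -1.56 and -1.59 on ALA and -1.20 and -1.25 on SFA. On the 4 probes shared by Gsta1, Gsta2 and 2 gene models of unnamed function, both ALA arrays lay below all Control and SFA arrays, with differences from Control of -2.24 to -1.39 on ALA and -0.57 to -0.13 on SFA. The ALA replicate 1 signal on them was between 5.08 and 5.21, and that of ALA replicate 2 between 6.17 and 6.77.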

How the data were processed

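Per the submitters' processing notes, the deposited values came from Partek 6.6 and RMA, the robust multi-array average method. They were taken as log2 values of the authors, from their range of 1.98 to 13.1, since the base is not stated; RMA compresses differences at low signal. The deposited table held 35556 probes, of which 21789 were annotated to 1 symbol, 1621 to several and 12146 to none. The brightest probe stood for each of 19938 genes. Of these, 10977 with a mean log2 signal of at least 5 were fitted together in R 4.3.3 with limma 3.58.1, with a mean per diet over all 6 arrays (3 residual degrees of freedom), and moderated by empirical Bayes. Tests were two-sided and p-values were adjusted by Benjamini-Hochberg over all tested genes. Errors are standard errors with n = 2 arrays per diet. The number of arrays limits their precision. The median log2 value was 4.76 and 4.82 on the SFA arrays and 4.9 to 4.96 on the others. The highest was 12.76 and 12.67 on SFA and 13.07 to 13.12 on the others. The SFA arrays thus sat lower as deposited, and the main fit used them without further normalization. The GST median between ALA and SFA was -0.40 in the main fit, -0.51 after 75th percentile centring and -0.35 after quantile normalization.

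Named members are those called in any contrast or by the F test and the 3 brightest tested of each family; the others are given by value or range. The members and gene lists were chosen with earlier results of these data known, so their counts stand beside those of all genes and no set test was run. All 45 members matched RefSeq (GRCm38.p6) by Entrez identifier. Promoter letters were searched in Python 3.11.15. The fit was tested on simulated data. Alternatives were another normalization (quantile, cyclic loess, centring on the 75th percentile), other signal minimums (6 or none), the mean of all probes of a gene, eBayes with trend and robust, only the 4 arrays of a contrast, the replicate number as a block, and each array left out. Protein identity between members was not analysed here.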

Additional observations from a re-analysis of the deposited data

Results flagged for a closer look

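Signal outside the counted members was higher on both diets than on the Control arrays on 2 probes of the SULT2A family, whose enzymes sulfate steroids and bile acids. They are annotated to several symbols and so belong to no single member. The probe shared by Sult2a1 and Sult2a2 was at 9.42 and 6.57 on Control, 9.88 and 10.47 on ALA, and 10.18 and 10.07 on SFA. Its differences of means from Control were 2.18 on ALA and 2.13 on SFA. The probe shared by Sult2a1, Sult2a2, Sult2a4 and Sult2a5 was at 6.45 and 4.31 on Control, 7.08 and 7.40 on ALA, and 7.19 and 7.09 on SFA, with differences of 1.86 and 1.76. On both probes the ALA and SFA arrays lay above both Control arrays, and Control replicate 2 lay more than 2 log2 units below Control replicate 1. The differences were not tested.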

How the results depend on the processing

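Over the 15 alternatives, no called difference of a member changed sign (14 for Sult5a1, which is not tested at a signal minimum of 6). Ugt2b5, Ugt3a1 and Gstp3 were called against Control on both diets under each of them. Calls near the threshold held under fewer: Gstp1 under 4 and Ugt2b36 under 5 on ALA, and Sult2a8 under 4, Sult1d1 under 8 and Ugt2b36 under 8 on SFA. Leaving out 1 array at a time gave 1 to 3 members higher and 4 to 8 lower on ALA, 1 to 6 higher and 2 to 8 lower on SFA, 0 lower on ALA than on SFA, and 3 to 14 by the F test. The 2 members lower on ALA than on SFA became 0 with cyclic loess, with quantile normalization, with no signal minimum and with only the 4 arrays, and 6 with eBayes with trend and robust. With the replicate number as a block, the counts were 2 higher and 9 lower on ALA, 4 higher and 7 lower on SFA, 0 between ALA and SFA, and 11 by the F test. Same-numbered arrays did not deviate together over the genes as a whole (correlations -0.030, -0.0040 and 0.023 over 10977 genes). Whether they share a litter or a processing batch cannot be told from these values. The SULT medians with no signal minimum were -0.011 on ALA, 0.064 on SFA and -0.14 between ALA and SFA. With 1 array left out they ran from -0.15 to 0.83 on ALA and from 0.065 to 0.53 on SFA, and the UGT median between ALA and SFA from -0.31 to -0.031. Leaving out an array outside a comparison kept its difference of means, so calls lost that way came with an unchanged difference. The Gstm4 difference between ALA and SFA stayed at -1.50 without either Control array. The cause of the other changes was not tested. Where 1 array was left out, its lone partner was assumed to vary like the other groups. With 2 pools per diet, only large or even differences could pass, and values near the low-signal bound have no reliable size.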
